A study of Oryctolagus cuniculus with 3 samples.

Results

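This account describes the cytosolic ribosomal protein genes of rabbit embryos that had been slow-frozen or vitrified. Its members are the genes of the array whose symbol begins with RPL or RPS followed by a number, together with the P-stalk and laminin receptor genes RPLP0, RPLP1, RPLP2 and RPSA where a probe carried their name; the ribosomal S6 kinases were left out. Members were chosen by name and not by their values. In all, 34 genes met the rule among 6481 genes with a symbol in the deposited table of values, 23 of them of the large subunit and 11 of the small subunit. RPLP0, RPLP2, RPSA, RPS6 and RPL11 had no named probe in that table and are not analysed here.

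The study put total RNA of rabbit embryos at day 6 on 3 Agilent oligonucleotide arrays with 2 channels each, and the labels call the arrays biological replicates. Both kinds of embryo had been recovered as morulae on day 3 after artificial insemination, cryopreserved, transferred to recipient does and collected on day 6. One channel of each array held embryos that had been slow-frozen; the steps of the freezing are not analysed here. The other held embryos vitrified with dimethyl sulphoxide and ethylene glycol, and 100 ng of RNA was labelled per sample. Frozen embryos were in Cy5, the red dye, on replicates 1 and 3, and in Cy3, the green dye, on replicate 2. Every value is a log2 ratio of frozen over vitrified, so a positive value is a higher signal in frozen embryos and 0 is no difference; both arms were cryopreserved, and embryos that were never frozen are not analysed here. The labels used here name neither the rabbits' strain nor how many embryos made up an extract. The direction of the column of replicate 2 is likely and not stated: it rests on 10 control probes for added RNA, whose ratios are set by the dye if each control mix kept its customary dye. Their correlation was 0.99 for replicates 1 and 3, and close to -1 when either was set against replicate 2.

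The ribosome joins 2 subunits, each a folded ribosomal RNA dressed with proteins that are needed in matched amounts. The large subunit forms peptide bonds and lets the new chain leave through a tunnel; the small subunit reads the messenger RNA. In mammals the messenger RNAs of these proteins are short and abundant and begin with a 5 prime terminal oligopyrimidine (TOP) tract, through which mTOR and the RNA-binding protein LARP1 control their translation. A blastocyst, the stage rabbit embryos have reached by the time of collection, grows quickly and makes new ribosomes as it does so. An array reads the amount of messenger RNA and not its translation. In a whole embryo, a change in the number of cells of a type cannot be told apart from a change in the RNA of each cell.

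The probes are single strands of 60 bases, and those that the results turn on are shown here as the scanner files give them, 5 prime to 3 prime. RPL7A is shown because it had the lowest mean of the members, RPS12 because it had the highest, RPL23 because its probes disagreed by position, RPL10 and RPS16 because their probes exist in versions that differ by a base, and RPS9 because its locus was probed on both strands. Capitals mark the base at which 2 versions differ in RPS12, RPL10 and RPS16, the TGA stop codon in the downstream probes of RPS12 and RPL23, and in RPS9 the 12 bases of the sense probe's 5 prime end with their reverse complement.
RPL7A: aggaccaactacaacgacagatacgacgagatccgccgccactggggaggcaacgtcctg
RPS12 upstream: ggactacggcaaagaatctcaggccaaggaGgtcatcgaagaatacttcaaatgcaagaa
RPS12 downstream: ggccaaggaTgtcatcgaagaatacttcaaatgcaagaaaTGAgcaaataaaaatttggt
RPL23 upstream: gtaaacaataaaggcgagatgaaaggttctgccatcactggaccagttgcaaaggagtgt
RPL23 downstream: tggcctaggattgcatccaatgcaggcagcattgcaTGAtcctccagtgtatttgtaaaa
RPL10 first version: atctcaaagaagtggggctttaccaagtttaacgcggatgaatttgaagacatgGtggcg
RPL10 second version: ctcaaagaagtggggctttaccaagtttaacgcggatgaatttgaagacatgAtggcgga
RPS16 first version: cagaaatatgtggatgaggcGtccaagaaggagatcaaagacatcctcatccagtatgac
RPS16 second version: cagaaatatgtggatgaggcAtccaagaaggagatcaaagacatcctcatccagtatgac
RPS9 sense: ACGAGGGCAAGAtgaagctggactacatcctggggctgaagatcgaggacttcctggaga
RPS9 antisense: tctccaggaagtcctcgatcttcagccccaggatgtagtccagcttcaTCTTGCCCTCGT

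The 34 members had 119 probes, none of which was saturated, and all of which exceeded the scanner's background limit wherever scanner files were used. A member's value is that of its brightest probe. A total of 16 members had a single probe and 18 had several, up to 10. The chosen probes of 16 members list more than 1 RefSeq transcript, so near-identical copies of those genes may share their signal and the values are uncertain to that extent. RPL7, RPL7A, RPL7L1 and RPS7 were named only through a gene identifier, and the RPL7 transcript is described as a predicted gene like L7.

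In the deposited values, ribosomal protein messenger RNAs differed little between frozen and vitrified embryos. The means over the 3 arrays ran from -0.27 (RPL7A) to 0.38 (RPS12), 14 members above 0 and 20 below. Over the named genes 3027 means were above 0 and 3454 below. No member had a mean of 1.5-fold or more in either direction, where 2.24% of the named genes did. No member passed an adjusted p of 0.05 in limma's moderated test with Benjamini-Hochberg adjustment over 22839 probes, and 0% of those probes did. The smallest adjusted p of all those probes was 0.55 in limma. At an unadjusted p of 0.05 the count of members was also 0, where 4.21% of the named genes passed, and the smallest unadjusted p among members was 0.084 in limma.

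Those counts depended on the processing. When the raw signals of replicates 1 and 3 were corrected with normexp and loess, without replicate 2, 11 members had an unadjusted p under 0.05, against 3.09% of the named genes, though none passed the adjusted threshold in limma. In the deposited values of the same 2 arrays it was 1 member, RPS12, against 4.66%, and with the sign of replicate 2 turned it was 2, RPL10 and RPL24, against 5.03%. After normexp and loess 4 members, RPS12, RPL24, RPS20 and RPL37, had a mean of 1.5-fold or more (0.91% of the named genes did), each higher in frozen embryos. In the deposited values of those arrays it was RPS12 alone, where 4.97% of the named genes did. Both of those arrays held frozen embryos in Cy5. A higher signal in frozen embryos therefore cannot be told apart there from a higher signal in Cy5. On replicate 2, the dye swap, the deposited values of RPS12, RPL24, RPS20 and RPL37 were -0.15, -0.41, -0.04 and -0.26.

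**Figure D1:**
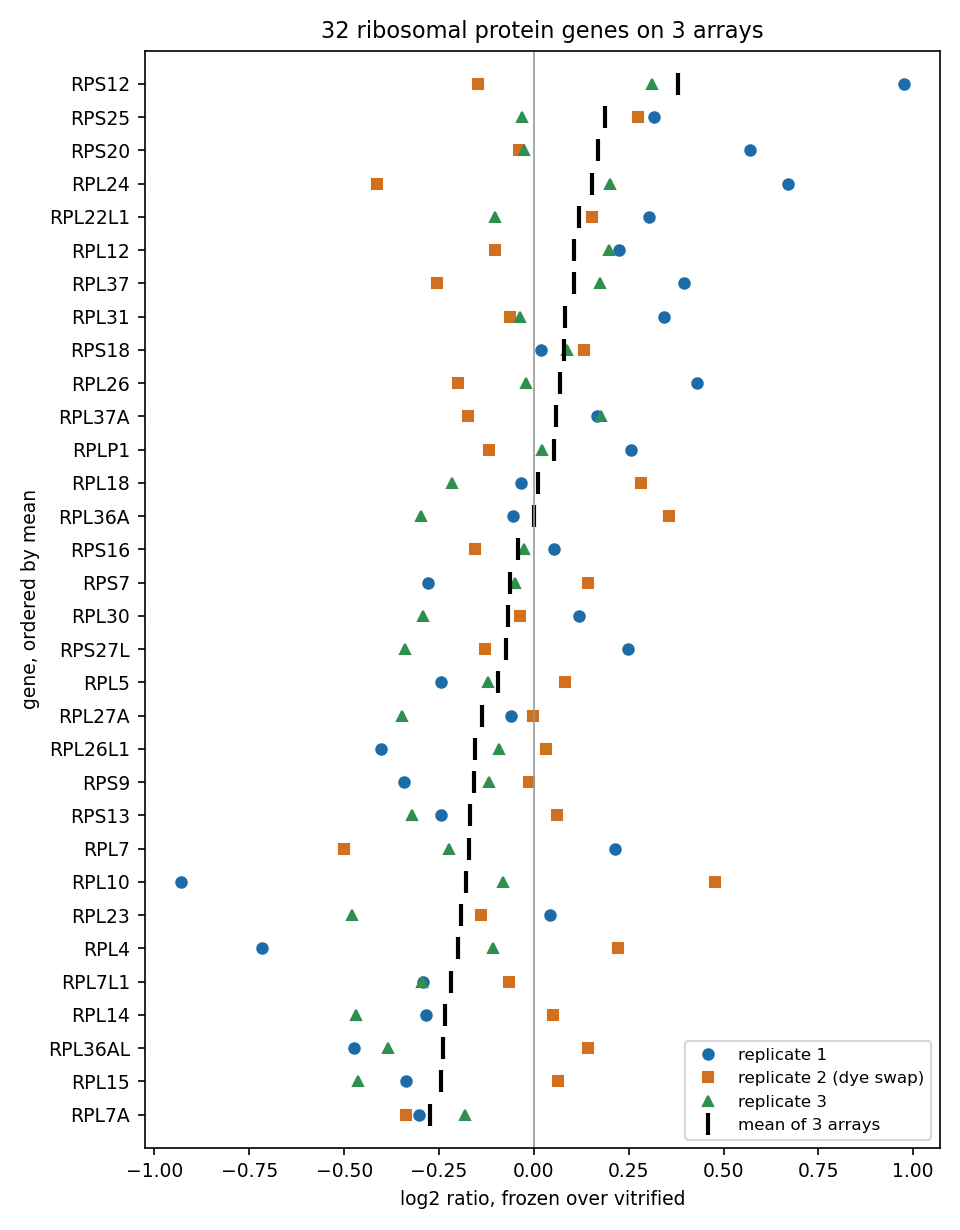
Log2 ratios of frozen over vitrified embryos (x axis) for 32 of the 34 ribosomal protein genes (y axis, ordered by mean), with a symbol per array and a bar at the mean of 3 arrays. The bars run from -0.27 for RPL7A to 0.38 for RPS12, and for most genes the symbols of replicates 1 and 2 lie on opposite sides of 0.

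On replicates 1, 2 and 3 the median over members was 0.03, -0.02 and -0.10, and the median of the means was -0.07. Over all named genes the same medians were -0.08, 0.04 and 0.02, and -0.01 for the means. Over the members replicate 3 was the most one-sided array, with 27 below 0 and 7 above. Replicate 1 had 18 above and 16 below, and replicate 2 had 15 above and 19 below. Of the 6481 named genes, 3793 were below 0 on replicate 1, 2785 on replicate 2 and 3030 on replicate 3. The sign of the members' median depended on the normalization. From replicates 1 and 3 alone it was -0.10 in the deposited values and 0.08 when the raw signals were corrected with normexp and loess instead. Over the named genes those medians were -0.04 and -0.01. Most members are among the brightest probes, with mean log2 signals from 9.51 to 17.24 (median 16.34), 29 of them over 15. The 73 other named genes over 15 had a median of -0.08 on replicates 1 and 3 in the deposited values and 0.06 after normexp and loess; this comparison was chosen after seeing the data.

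The spread of the members differed between the arrays more than their centre did. Over members the SD on replicates 1, 2 and 3 was 0.40, 0.21 and 0.21, against 0.44, 0.33 and 0.35 over the named genes. The median over members of the SD between arrays was 0.22, and over named genes it was 0.26.

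A single direction on all 3 arrays was seen in 5 members. RPL7A, RPL7L1, RPL27A and RPS9 were below 0 on each array, which is 11.8% of the members against 11.7% of the named genes. RPS18 was above 0 on each, 2.94% of the members against 10.7%. With the sign of replicate 2 turned, the counts became 12 below 0 (35.3% against 15.4% of the named genes) and 6 above 0 (17.6% against 11%). Turning that sign reads the 3 arrays as Cy5 over Cy3.

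Replicates 1 and 2 had opposite signs in 27 of the 34 members (79.4%) and in 66% of the named genes. Across the 34 members the values of replicates 1 and 2 correlated at r = -0.54, those of replicates 1 and 3 at 0.50 and those of replicates 2 and 3 at -0.24. Across the 6481 named genes the same correlations were -0.38, 0.01 and 0.48. The sign between replicates 2 and 3 thus differed, negative over the members and positive over the named genes. The 73 other bright genes had -0.52, 0.16 and 0.09. Genes are not independent replicates, the points of an array share its 2 extracts and dyes, and these values are a description. Each gene's values were also split into a part that keeps its sign on the dye swap and a part that turns with the dye. The part that turns was the larger in 23 of the 34 members (67.6%) and in 56% of the named genes. A dye covariate was fitted to each probe as an alternative. Replicate 2 is the dye swap as well as a separate pair of extracts, so the dye cannot be told apart from that pair.

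**Figure D2:**
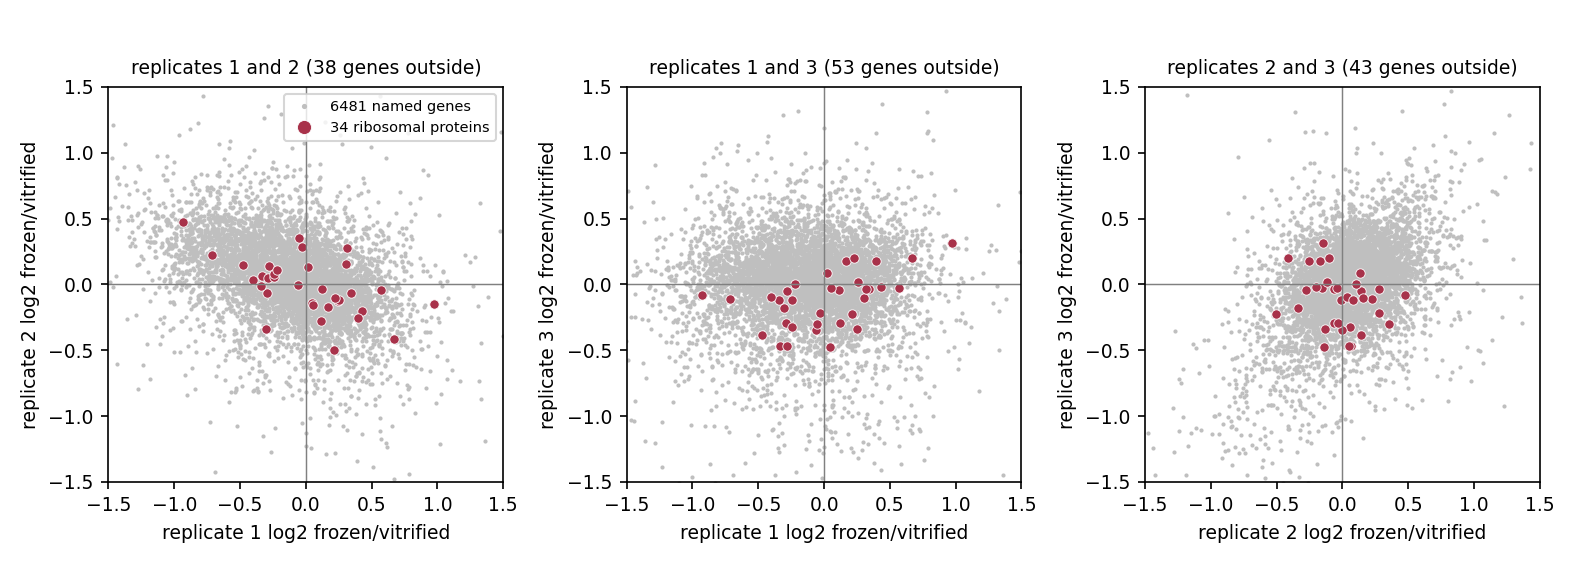
Log2 ratios of one array against another (frozen over vitrified on each axis) for the 34 ribosomal protein genes (red) and the 6481 named genes (grey); titles give the number of genes outside the axes. The red points fall from upper left to lower right between replicates 1 and 2 (r = -0.54) and rise between replicates 1 and 3 (r = 0.50).

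RPL7A, a protein of the large subunit, had the lowest mean and the smallest unadjusted p. Its values were -0.30, -0.34 and -0.18 on replicates 1, 2 and 3, a mean of -0.27 ± 0.08 (SD, n = 3) or 1.21-fold higher in vitrified embryos. All 3 arrays lay on the same side within a narrow range. On replicate 1 its processed intensity was 125806 in the frozen channel and 155193 in the vitrified channel, and on replicate 3 it was 136073 and 154236. Its p was 0.084 unadjusted and 1.00 adjusted in limma. Turning the sign of replicate 2 made the mean -0.05, and it was 0.12 after normexp and loess on replicates 1 and 3. It had a single probe, so no second one could be compared.

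RPS12, a protein of the small subunit's head, had the highest mean. Its values were 0.97, -0.15 and 0.31, a mean of 0.38 ± 0.56 (SD, n = 3) or 1.30-fold higher in frozen embryos. Replicate 1 was far above the other 2 arrays, and replicate 2 was below 0. The processed intensity was 156222 in the frozen channel and 79491 in the vitrified channel on replicate 1, and 134845 and 108668 on replicate 3. The mean was 0.08 without replicate 1 and 0.64 without replicate 2, and it was 0.94 after normexp and loess on replicates 1 and 3. Its unadjusted p was 0.16 and its adjusted p 1.00 in limma.

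The 10 probes of RPS12 start over a stretch of 21 bases at the end of the coding sequence. All had a mean above 0, from 0.30 to 0.42, but they did not agree array by array. The upstream probe shown above, the brightest, had 0.97, -0.15 and 0.31, while the downstream probe had 0.33, 0.22 and 0.53. The downstream probe was above 0 on each array, with an unadjusted p of 0.043 and an adjusted p of 1.00 in limma, and it was the only one of the 119 member probes under 0.05 unadjusted, where 4.47% of all probes were. It is named after its values were seen. Where the 2 probes overlap, over 39 bases, they differ by G31T, counted from the 5 prime end of the upstream probe. The downstream one ends 17 bases past the stop codon.

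The other low means belonged to large-subunit genes. RPL15, which lies deep in the large subunit's core, had -0.34, 0.06 and -0.46 (mean -0.25 ± 0.28, SD, n = 3). RPL14 had -0.28, 0.05 and -0.47 (mean -0.23 ± 0.26, SD, n = 3). In both, replicate 2 was near 0 and the other arrays were lower, and neither passed the test (adjusted p = 1.00 in limma). RPL4, which lines the peptide exit tunnel, had -0.72, 0.22 and -0.11 (mean -0.20 ± 0.48, SD, n = 3); its mean was 0.06 without replicate 1. RPL10, which joins the large subunit late in its maturation, had the lowest single value of any member at -0.93 on replicate 1, with 0.48 on replicate 2 and -0.08 on replicate 3.

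Read from their chosen probes, RPS20 and RPL24 owed their high means to replicate 1. RPS20 had 0.57, -0.04 and -0.03 (mean 0.17 ± 0.35, SD, n = 3), and its mean was -0.03 without replicate 1 and 0.61 after normexp and loess. The 4 other probes of RPS20 had 0.56 to 0.63 on replicate 1. On replicate 3 they had -0.02 to 0.25 (median 0.19), so replicate 3 also added to the mean in some of them. Their means ran from 0.21 to 0.27. RPL24, at the interface of the subunits, had 0.67, -0.41 and 0.20 (mean 0.15 ± 0.54, SD, n = 3), and its mean was -0.11 without replicate 1, 0.43 with the sign of replicate 2 turned and 0.69 after normexp and loess. RPS25, used by some viral internal ribosome entry sites, had 0.32, 0.28 and -0.03 (mean 0.19 ± 0.19, SD, n = 3). None of them had a single direction on the 3 arrays.

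Of the P stalk, the flexible arm that recruits elongation factors, RPLP1 and the stalk base RPL12 were measured. RPLP1 had 0.25, -0.12 and 0.02, and RPL12 had 0.22, -0.10 and 0.20. Both were above 0 where frozen embryos were in Cy5 and below 0 on the dye swap. Their means were 0.05 ± 0.19 and 0.11 ± 0.18 (SD, n = 3). After normexp and loess on replicates 1 and 3 they were 0.56 and 0.50.

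RPL5, a partner of the 5S ribosomal RNA in the particle that also restrains MDM2, had -0.24, 0.08 and -0.12 (mean -0.09 ± 0.16, SD, n = 3). Its 4 probes had means between -0.13 and -0.05. Like RPS7, it is among the genes mutated in Diamond-Blackfan anaemia, an inherited failure of red cell production. RPS7 had -0.28, 0.14 and -0.05, a mean of -0.06. In both genes replicate 2 was above 0 and the other arrays were below. Those signs were shared by 12 of the 34 members (35.3%) and 15.4% of the named genes, so they are not particular to genes of this disease.

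Of the proteins around the peptide exit tunnel, RPL4 (above), RPL26 and RPL31 were measured. RPL26 had 0.43, -0.20 and -0.02, and RPL31 had 0.34, -0.06 and -0.04. Both exceeded 0 on replicate 1 alone. RPS18, a protein of the small subunit's head whose values were 0.02, 0.13 and 0.09 (mean 0.08 ± 0.06, SD, n = 3), was the one member above 0 on each array, at a size that is small beside the spread of most members.

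Further members follow with their values on the 3 arrays. RPL27A, on each array below 0 by its chosen probe, had -0.06, -0.0029 and -0.35, a mean that replicate 3 set. Neither trait was seen in its other probe, which had -0.25, 0.16 and -0.28. RPS13 had -0.25, 0.06 and -0.32, which is the order of arrays seen in RPL14 and RPL15. RPL18 had -0.03, 0.28 and -0.21, and RPL30 had 0.12, -0.04 and -0.29. RPL37 and RPL37A, 2 small proteins of the large subunit, were above 0 on replicates 1 and 3 and below 0 on the dye swap. RPL37 had 0.40, -0.26 and 0.18, and RPL37A had 0.17, -0.17 and 0.18. RPS16 had 0.05, -0.15 and -0.03.

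Some ribosomal proteins have a paralog encoded by a second gene, and 5 of those were measured. RPL7L1, a divergent relative of RPL7 with a part in ribosome assembly, had -0.29, -0.06 and -0.29 (mean -0.22 ± 0.13, SD, n = 3), below 0 on each array; its 5 probes had means from -0.22 to -0.19. The predicted gene like L7, named RPL7 here, had 0.21, -0.50 and -0.22 by a probe whose mean was -0.17. Its other probe had a mean of 0.16. The mean log2 signals of these probes were 9.51 and 6.51, against a median of 16.34 over the members. Whether they read the message of the parent gene is not known. RPL36AL had -0.47, 0.14 and -0.38 (mean -0.24 ± 0.33, SD, n = 3), while RPL36A had -0.05, 0.36 and -0.30 (mean 0.00 ± 0.33, SD, n = 3). RPL36AL was lower than RPL36A on each of the 3 arrays.

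RPL26L1 had -0.40, 0.03 and -0.09 (mean -0.15 ± 0.22, SD, n = 3), and its parent RPL26 had a mean of 0.07 ± 0.32 (SD, n = 3). RPL22L1 had 0.30, 0.15 and -0.10 (mean 0.12 ± 0.21, SD, n = 3). RPS27L, a p53 target, had 0.25, -0.13 and -0.34 (mean -0.07 ± 0.30, SD, n = 3). The parents of these last genes, RPL22 and RPS27, are not analysed here. Over the 5 paralogs the median mean was -0.15, with 4 below 0; over the other 29 members it was -0.04.

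The median of the large-subunit members was -0.09 and that of the small-subunit members -0.04, a difference of -0.05. By array the difference was -0.09, -0.02 and -0.09. The sign was the same on each array, and the size was small beside the SD of 0.14 over the 23 large-subunit means and 0.17 over the 11 small-subunit means. The difference became 0.05 when each gene was read from its most 3 prime probe, 0.02 without replicate 3, -0.19 without replicate 2 and -0.10 with the sign of replicate 2 turned. After normexp and loess on replicates 1 and 3 it was 0.03, to be read beside the -0.19 of those arrays.

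Many members had probes tiled in steps of 1 or a few bases, which shows how far a ratio depends on the probe. Among 12 members with at least 2 further probes starting within 10 bases of the chosen one, the SD over these near-identical probes had medians of 0.05, 0.05 and 0.07 on the 3 arrays. The highest SDs were 0.11 for RPL10 on replicate 1, 0.22 for RPS25 on replicate 2 and 0.14 for RPL37 on replicate 3.

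The chosen probe stood apart from its neighbours in a few genes. For RPL10 the chosen probe had -0.93 on replicate 1, and the 9 others lay between -0.69 and -0.55. For RPS25 it had 0.28 on replicate 2, and the 4 others within 10 bases lay between -0.31 and -0.08. The mean of RPS25 was 0.19 by the chosen probe and 0.02 as the average over its 10 probes.

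The versions of RPL10 and of RPS16 had similar values. The 2 versions of RPL10, which differ by G55A (position counted from the 5 prime end of the first version) over 58 shared bases, had -0.62, 0.38 and -0.07, and -0.55, 0.33 and -0.12. The 2 versions of RPS16 cover the same 60 bases and differ by G21A. They had 0.18, -0.26 and 0.01, and 0.09, -0.24 and -0.08. RPL23 has 2 sequences that each occur under a pair of probe names, and those pairs differed by at most 0.18 on any array.

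Values differed more between positions on the transcript in some genes. The 7 upstream probes of RPL23, a protein that with RPL5 and RPL11 can bind MDM2, had averages of 0.01, -0.18 and -0.36 on the 3 arrays. The 3 downstream probes, which begin 384 to 386 bases into the array's transcript model rather than 312 to 316, had 0.71, -0.57 and 0.12. On each array the ranges of the 2 groups did not overlap, and the downstream probe shown above ends 21 bases past the stop codon. The downstream minus upstream difference was 0.70, -0.39 and 0.48, so that the mean of RPL23 was -0.18 by the upstream and 0.08 by the downstream probes. The 2 groups had nearly the same GC content, 44.5% and 44.4%.

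RPS25 and RPL37 had the same signs. For RPS25 the 5 downstream probes exceeded the 5 upstream ones by 0.61 on replicate 1 and by 0.12 on replicate 3, and the difference was -0.17 on replicate 2. For RPL37 the differences were 0.10, -0.08 and 0.12. Unlike in RPL23, the upstream and downstream groups differed in GC content, 44.3% and 38.0% in RPS25 and 43.3% and 35.3% in RPL37. Their ranges overlapped on replicates 2 and 3 in RPS25 and on all 3 arrays in RPL37. The parts of position and GC content were not tested. By average, the downstream probes of RPL23, RPS25 and RPL37 were higher in Cy5 over Cy3 on each array, and higher in frozen over vitrified on 2 of the 3. The other 3 members with probe groups at least 40 bases apart did not share that pattern. RPL5 had differences of 0.06, -0.01 and -0.03, RPL22L1 had -0.17, 0.21 and 0.06, and RPL7 had 0.31, 0.27 and 0.43.

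**Figure D3:**
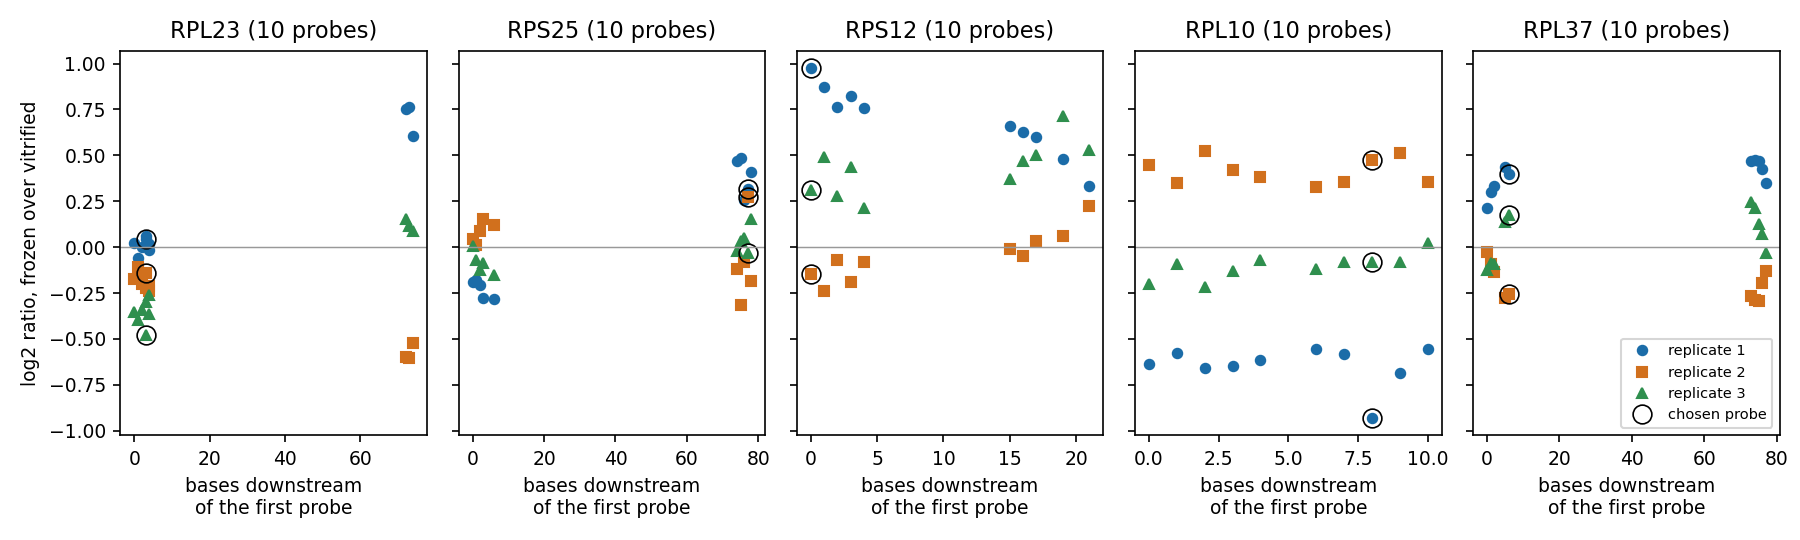
Log2 ratios of frozen over vitrified embryos (y axis) for each of the 10 probes of 5 genes, against the distance in bases from that gene's first probe (x axis), with a symbol per array and a ring around the chosen probe. In RPL23 the upstream and downstream groups separate on all 3 arrays, in RPL10 all probes of an array lie together apart from the chosen one on replicate 1.

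The same contrast over other genes was computed beside this. Among 213 transcripts of other genes whose outermost probes were at least 500 bases apart, the most 3 prime probe minus the most 5 prime probe had medians of 0.24, -0.13 and -0.06 on the 3 arrays. Among 2392 transcripts with a distance of 40 to 200 bases, the medians were 0.04, -0.01 and -0.02. RNA quality and labelling can shift such a contrast, and their part in the member values was not tested.

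Member probes sit near the ends of their messages. The letters AATAAA, the common polyadenylation signal, searched on the probe's own strand, occur in the chosen probes of 9 members (26.5%) and of 2.79% of the named genes. A match is a description of letters only: in the RPL23 probe shown above they lie within coding sequence. The 9 members with the letters had a median of 0.12 on replicate 1, 7 of them above 0, and the 25 others a median of -0.22, with 11 above 0. Over all named genes the medians on replicate 1 were 0.03 with the letters and -0.08 without, the same order. On replicates 2 and 3 the 2 sets of members had medians of -0.04 and 0.00, and of -0.04 and -0.10.

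RPS9 was probed on both strands with 60 bases that are exact reverse complements. The sense probe, chosen as the brighter, had -0.34, -0.01 and -0.12. The antisense probe, designed from a sequence tag read from the 3 prime end, had 0.70, -0.20 and 0.06. Both were well above background, but the antisense probe was far dimmer. Its mean log2 signal was 7.71 against 16.46 for the sense probe, with a median of 8.52 over the named genes. The 2 probes had opposite signs on replicates 1 and 3. What the antisense probe binds in these samples is not known from the files.

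Genes that make and regulate ribosomes were read from 4 lists, all without a member past an adjusted p of 0.05 in limma. Of 74 genes of ribosome assembly and ribosomal RNA synthesis, 54 were measured; 2 passed an unadjusted p of 0.05, against 4.21% of all named genes. Both were higher in frozen embryos, and the list's median was -0.06. DKC1, the pseudouridine synthase of ribosomal and telomerase RNA, had 0.68, 0.54 and 0.57 (mean 0.60 ± 0.07, SD, n = 3). RPF2, which brings the 5S particle into the large subunit, had 0.46, 0.58 and 0.40 (mean 0.48 ± 0.09, SD, n = 3). Both were above 0 on each array within a narrow range, with unadjusted p of 0.0045 and 0.013 and adjusted p of 0.81 and 0.88 in limma. NPM1, an abundant nucleolar chaperone, had -0.75, 0.40 and -0.20 (mean -0.18 ± 0.58, SD, n = 3).

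Other transcripts with a 5 prime TOP tract had values of the same size as the members. Of 19 listed, 11 were measured, none with an unadjusted p under 0.05 in limma, and their median was -0.03; by array it was -0.02, 0.09 and -0.18. EEF1D, a subunit of the exchange factor of elongation factor 1, had 0.09, -0.22 and -0.42. FAU, which encodes RPS30 fused to a ubiquitin-like protein, had 0.02, 0.09 and -0.52. As in the members, replicate 3 had the lowest of the 3 medians.

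Of 20 genes of mTOR and TOP control, 14 were measured, with a median of -0.05. DDIT4, a stress-induced inhibitor of mTOR complex 1, had -1.36, -0.27 and -1.19 (mean -0.94 ± 0.59, SD, n = 3), below 0 on each array; its p was 0.010 unadjusted and 0.85 adjusted in limma. It was the one gene of this list under 0.05 unadjusted. RPS6KA1, a kinase of ribosomal protein S6 downstream of ERK, had -1.30, 0.29 and -0.10. LARP1 and MTOR had means of 0.05 and 0.04. Of 14 genes that watch over stalled ribosomes, 7 were measured, with a median of 0.00 and none under 0.05 unadjusted in limma. RNF14 had 0.11, 0.24 and 0.33, and ASCC3 had 0.12, 0.21 and -0.07.

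**Figure D4:**
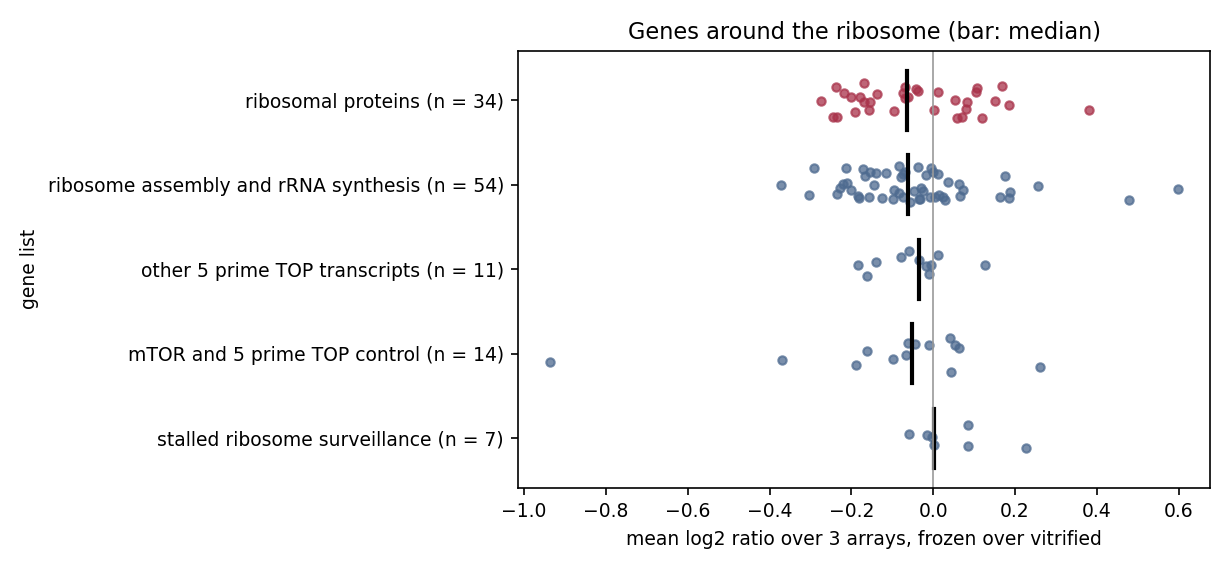
Mean log2 ratio of frozen over vitrified embryos over 3 arrays (x axis) for each measured gene of 5 lists (y axis), with a bar at the median of each list. The medians lie between -0.07 and 0.00, and DDIT4 at -0.94 and DKC1 at 0.60 lie farthest from 0.

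Markers of the embryo were present: 8 of 10 trophoblast, 3 of 7 epiblast and 10 of 13 hypoblast markers had a probe in the table, and every probe there was well above background in both scanner files. Trophoblast markers had a median of 0.09, hypoblast markers of -0.57 and epiblast markers of -0.58. With the sign of replicate 2 turned these were -0.06, -0.04 and -0.54. At an unadjusted p of 0.05 in limma, which 4.21% of the named genes passed, 4 hypoblast, 2 epiblast and 0 trophoblast markers were called, all below 0; none passed the adjusted threshold. Of red blood cell, leukocyte and uterine markers, 2 of 9, 3 of 8 and 2 of 9 had a probe in the table. The globin gene HBB2 had 2.62, -3.77 and -3.59, so that replicate 1 stood on the other side of 0 from replicates 2 and 3. The part of cell makeup in the member values was not tested.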

How the data were processed

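The authors deposited scanner output of replicates 1 and 3 and a table of all 3 arrays. Agilent Feature Extraction 10.10.1.1 read the images, per the submitters' processing notes. The scanner files as deposited hold raw and processed intensity in each channel, the latter background-subtracted and dye-normalized, a log10 ratio of red over green and flags. The deposited table holds log2 ratios of 22865 probes, 26 of them controls; its scale, centring and direction are unstated. For replicates 1 and 3, 100.0% of its values lay within 0.001 of the log2 ratio of red over green in the scanner files. The medians of its columns were -0.015, 0.021 and 0.017. How 22839 of 43603 probes were kept for it is not given in the sources.

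Of the tested probes 13865 were named, through the gene name or description in the scanner files or through transcripts and gene identifiers in the current RefSeq gene table of the rabbit (assembly mOryCun1.1). Log2 ratios were tested against 0 with limma 3.58.1 in R 4.3.3 (lmFit, eBayes) on all 22839 probes, with Benjamini-Hochberg adjustment; the fit was tested on simulated data. Python 3.11.15 and pandas 2.3.3 did the joins. With 3 arrays the smallest 2-sided exact sign-flip p is 0.25, so no such test was made, and the number of arrays limits the precision. Named were the 6 highest and 6 lowest members by mean, the 6 smallest p, the P stalk, 5S particle and paralog genes with their parents, and the 2 smallest p of each further list; RPL10, RPL23, RPL27A, RPL31, RPS9, RPS18 and the genes described by probe position or role, LARP1, MTOR and HBB2 were added after their values were seen. Alternatives were the turned sign of replicate 2, each array left out, centred columns, a dye covariate, another variance prior, other probes per gene, a signal filter, normexp (offset 50) with loess on the scanner files, and other memberships. Counts and medians cover all 34 members, of which 2 are not reported here individually. The members and lists were chosen with earlier results of these data known.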

Additional observations from a re-analysis of the deposited data

How the results depend on the processing

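No member passed the adjusted threshold in limma under any of the 13 alternatives; leaving out each array in turn left 0 members each time. The number of members with 1 sign on all arrays, 5 as reported, was 18 with the sign of replicate 2 turned, 3 for the mean over all probes of a gene, 1 of 5 genes when restricted to genes named by symbol, 23 of 34 on the 2 arrays with normexp and loess, and between 7 and 23 when an array was left out; with 2 arrays more genes share a sign by construction. Normexp and loess also leave out replicate 2. The member median of -0.07 was -0.10 without replicate 2 and 0.08 with normexp and loess on the same arrays, and lay between -0.10 and -0.04 when an array was left out. The large minus small subunit difference of -0.05 was -0.10 with the sign turned, 0.05 for the most 3 prime probe, 0.03 with normexp and loess (-0.19 on the same arrays as deposited), -0.10 over the genes named by symbol, and between -0.19 and 0.02 when an array was left out. Of 225 values of 19 named members under the alternatives, 217 moved by less than the gene's own SD over arrays and 8 by more. Many of the 217 could not move. Another variance prior, the signal filter and other memberships keep a gene's mean, and other probes per gene change nothing where a gene has a single probe. RPL5, RPL7A, RPL12, RPL26, RPLP1, RPS20 and RPS25 moved by more after normexp and loess, and RPL7A also with the sign of replicate 2 turned. By that measure a gene with a wide SD can shift far and not be counted. After normexp and loess RPS12 went from 0.38 to 0.94 (SD 0.56) and RPL24 from 0.15 to 0.69 (SD 0.54). The cause of these shifts was not tested. The reported test is itself paired, since it takes the ratio of the 2 samples on each array. No paired analysis was possible beyond it, because a block per array would leave no degrees of freedom.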

Other observations

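A few further probes are described in the scanner files as ribosomal proteins but could not be given a symbol by the naming used here, and they were therefore no members. The table holds 7 of them. The probe described as ubiquitin and ribosomal protein L40 had -0.46, 0.18 and -0.44 (mean -0.24), that of a protein like S11 had 0.15, -0.01 and -0.42, and that of a protein like L13 had -0.04, -0.12 and -0.21. A protein like L36 had a mean of -0.09 and one like L35 a mean of -0.08. Both probes of a protein like S26 had means of 0.08 and 0.09. The range of these 7 means lay within that of the members.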
